A study of Mus musculus with 8 samples.

Results

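The ovulatory response of RNA was followed in mouse granulosa cells that had lost the nuclear receptor LRH-1 (NR5A2), by comparing all RNA libraries of the conditional knockout (cKO) before and after hCG. These are 6 of the 12 RNA libraries of the series, 3 of each time, and they make up 2 of its 8 samples. All mice were C57BL/6, 22 to 25 days old, and were primed with 5 IU of eCG, a gonadotropin of the mare that makes follicles grow. An injection of 5 IU of hCG, the human gonadotropin that acts as the luteinising hormone surge does, followed 44 h after the priming. The cKO mice were Nr5a2 f/f with Amhr2 Cre/+ and the control mice (CTL), used below only to place the cKO values, were Nr5a2 f/f with Amhr2 Cre/-, so that both genotypes carried the floxed allele and the hormones. Granulosa cells were collected by puncture of the ovary just before hCG (0 h) or 4 h after it. Cre is driven by Amhr2, and the labels place the depletion of LRH-1 from the primary follicle onward, so neither smaller follicles nor cells without Amhr2 are modelled. Whether the 3 libraries of a group came from different animals or pools is not stated, so each p-value measures only the spread between libraries.

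Granulosa cells surround and feed the oocyte. At the ovulatory surge they stop dividing, change their steroid output and switch on the genes that loosen the follicle wall and expand the cumulus. LRH-1 is an orphan nuclear receptor that binds DNA as a monomer, is abundant in granulosa cells and is needed in them for ovulation. The comparison asks which RNAs still respond to hCG when it is absent.

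RNA was measured per transcript: each kallisto table lists 110473 mouse transcripts by Ensembl identifier, with the estimated count (the number of reads assigned to that transcript, with reads that fit several isoforms divided among them) and TPM (a share of all transcripts, corrected for length). The tables do not pair transcripts with genes, and the gene names used here carry no such identifier. Named genes, the level of Nr5a2 itself, pathway lists and markers of granulosa and other ovarian cells were therefore not analysed here, so neither the knockout nor the purity of the cells was checked. A change of a gene and a shift between its isoforms cannot be told apart, and in bulk RNA neither can fewer cells of a type and less RNA per cell. No transcript sequence was used here. Levels are given as CPM, the rounded estimated count scaled to an equal library total, unless another scale is named.

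The cKO libraries held 12867199 to 18022822 counts before hCG and 16721319 to 23752978 after it. Likeness between them was low. Among 186 transcripts averaging 500 CPM or more in the 12 libraries, Pearson's r of log2(CPM + 1) ran from 0.0635 to 0.599 within the libraries before hCG, from 0.0989 to 0.324 within those after it and from 0.0222 to 0.44 across times. These values describe transcripts, which are not independent replicates. In this set a pair of libraries stood apart. Replicate 1 before hCG correlated with the other cKO libraries at 0.0222 to 0.252 and with replicate 1 of CTL before and after hCG at 0.759 and 0.582. Replicate 1 after hCG correlated with every one of the other 11 libraries at no more than 0.193. Among 14053 transcripts averaging 10 CPM or more, replicate 1 after hCG did not stand apart. Its r with the other cKO libraries was 0.169 to 0.291, against 0.116 to 0.317 for replicate 2 after hCG and 0.183 to 0.301 for replicate 3. Replicate 1 before hCG had 0.116 to 0.311 there, and 0.514 and 0.404 with replicate 1 of CTL before and after hCG. Results that rest on the 2 cKO replicates 1 are also given without them, a check chosen after the data were seen.

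After hCG the cKO libraries held far fewer transcripts. The part of RNA quality and of library preparation in this and the other values of breadth was not tested. With every library thinned to 9250809 counts, the total of the smallest of the 12, the libraries before hCG held 31155, 26301 and 38205 transcripts with at least 1 count, a mean of 31887 ± 5986 (SD, n = 3). The libraries after hCG held 15077, 16642 and 17066, a mean of 16261 ± 1048. Every library after hCG was below every library before it although those after hCG were on average sequenced more deeply, and their spread was narrow. The difference of -15626 transcripts had an exact permutation p of 0.1 (two-sided), which is the smallest that 3 libraries against 3 allow. It was -15992 without replicate 1 before hCG and -15033 without replicate 1 after it. Among the 32944 transcripts abundant enough to be tested, 31.0, 35.7 and 19.3% had no count in the 3 libraries before hCG and 59.6, 55.7 and 55.0% had none in the 3 after it.

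Diversity weighted by abundance was lower too. The effective number of transcripts, the exponential of the Shannon entropy, counts how many equally abundant transcripts would give the same diversity. It was 5786, 3371 and 6847 before hCG and 1281, 2700 and 2619 after it, again without overlap, and the mean difference was -3135 (exact permutation p = 0.1, two-sided). The 100 most abundant transcripts took 19.9, 27.6 and 19.0% of the counts before hCG and 39.1, 25.4 and 27.2% after it. Here the times overlapped, and the difference of 8.45 percentage points (exact permutation p = 0.3, two-sided) was 4.18 points without replicate 1 after hCG.

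**Figure D1:**
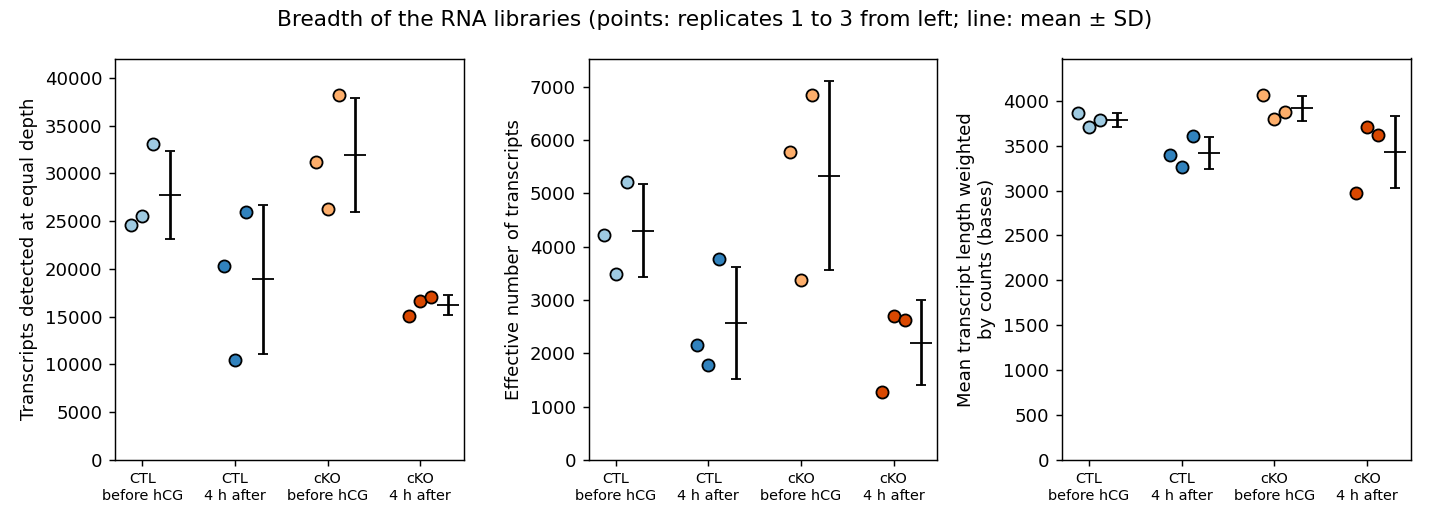
Number of transcripts with at least 1 count at equal depth (left), effective number of transcripts (middle) and mean transcript length weighted by counts (right, in bases) in each RNA library, with the mean ± SD of each group of 3. The 3 cKO libraries after hCG lie below the 3 before hCG in each panel.

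In CTL cells the detected transcripts differed by -8819 between times and the effective number by -1737. The cKO minus CTL differences of these values were -6807 transcripts and -1398 effective transcripts, and neither passed when the genotype labels were permuted within each time over all 400 arrangements (exact p = 0.29 and 0.315, two-sided, adjusted p = 0.63 for both over the 4 library measures). The lower breadth after hCG is thus not shown to depend on the genotype.

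Transcripts were next sorted by presence, taken as more than 1 CPM. In cKO cells 2129 transcripts were present in all 3 libraries before hCG and in none after it. In the opposite direction, 48 were present in all 3 libraries after hCG and in none before it. These are 1.93% and 0.0434% of all transcripts listed, a ratio of 44.4. The excess of 2081 was the largest of the 20 ways of dividing the 6 libraries into 3 and 3, together with its mirror image (exact permutation p = 0.1, two-sided, the smallest possible). A further 2214 transcripts were present in all 6 libraries. The share of transcripts present in every library of a time was smaller after hCG as well. Before hCG 8942 transcripts were present in all 3 libraries, 21% of the 42499 present in any, and after it 2968 were, 12.9% of 23023.

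The lopsidedness was smaller among abundant transcripts. At a level of 5 CPM the counts were 1109 and 45, and at 20 CPM they were 367 and 42, a ratio of 8.74. On CPM scaled by TMM, which compensates for a few dominant transcripts, 20 CPM gave 220 and 84, a ratio of 2.62. Without both replicates 1 the numbers at 1 CPM were 5035 and 409, since the condition then asks for 2 libraries a side. Leaving out any 1 of the 6 libraries gave 2767 to 5718 and 106 to 234.

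**Figure D2:**
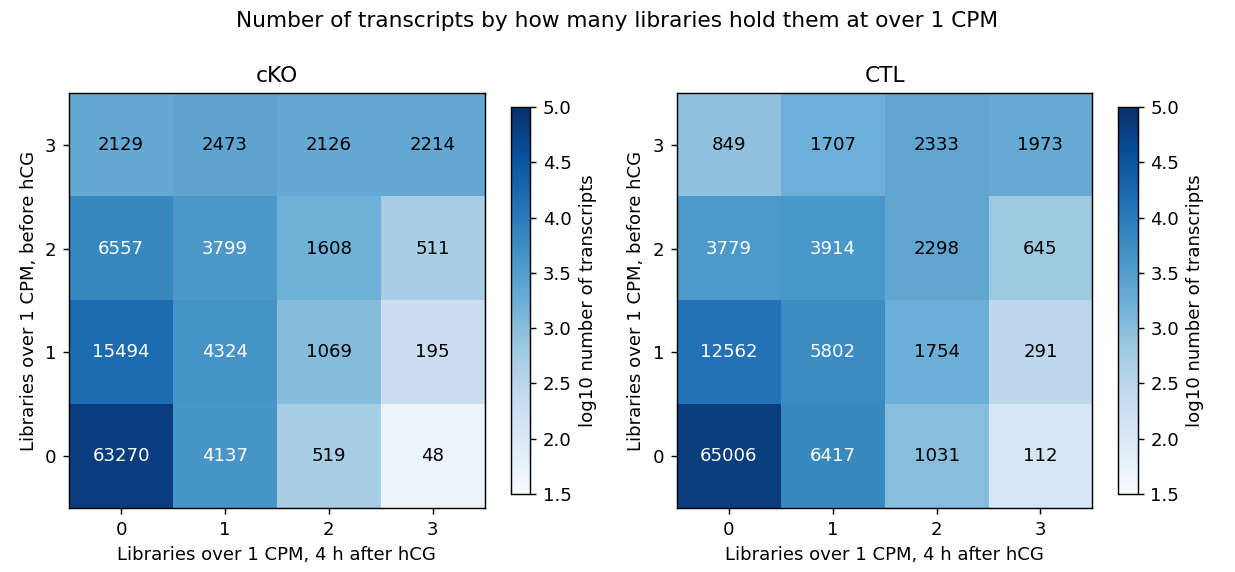
Number of transcripts by how many of the 3 libraries before hCG (vertical axis) and after it (horizontal axis) held them at over 1 CPM, in cKO (left) and CTL (right); colour shows log10 of the number. In cKO the upper left corner holds 2129 transcripts and the lower right corner 48, against 849 and 112 in CTL.

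The transcripts that dropped below the level were of middling abundance. Together they took 5.01% of the counts before hCG (4.42 to 5.93% in single libraries) and 0.0143% after it. Their median level before hCG was 14.1 CPM and their median length 2627 bases. The 48 that appeared took 0.225% of the counts after hCG (0.161 to 0.273%), with a median level of 19.0 CPM and a median length of 1581 bases. The 2214 present throughout were longer, with a median of 3459 bases. They took 42.9% of the counts before hCG (37.1 to 48.2%) and 51.5% after it (48.8 to 55.5%). Another 42812 transcripts were present in some libraries but belonged to none of these classes. They took 52.0% of the counts before hCG, the largest share, and 48.2% after it.

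By the same rule CTL cells had 849 transcripts present only before hCG (0.769% of those listed) and 112 only after it (0.101%), a ratio of 7.58. The cKO excess of 1280 in the first class had an exact permutation p of 0.255 and the deficit of 64 in the second an exact permutation p of 0.375 (two-sided, 400 arrangements, adjusted p = 0.375 for both). Of the 2129 transcripts, 105 were in the same class in CTL, which is 4.93% of the cKO list and 12.4% of the CTL list, and 2 were in the opposite class. Of the 48, 6 were in the same class in CTL, 12.5% of the cKO list and 5.36% of the CTL list, and 0 in the opposite one.

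Among single transcripts, the direction of change went with abundance. Of the 32944 tested, 305 were higher in all 3 cKO libraries after hCG than in all 3 before it (0.926%), and 5431 were lower in all 3 (16.5%). On TMM-scaled CPM these were 548 (1.66%) and 4693 (14.2%). The 13318 transcripts with a mean under 5 CPM over the 12 libraries had 39 higher (0.293%) and 2109 lower (15.8%). The 11457 between 5 and 20 CPM had 69 (0.602%) and 2104 (18.4%). The 6650 between 20 and 100 CPM had 106 (1.59%) and 1083 (16.3%), and the 1333 between 100 and 500 CPM had 68 (5.10%) and 124 (9.30%). Below 100 CPM the share that was lower thus stayed near that of all transcripts tested, while the share that was higher rose with level. The filter and the classes used these same libraries, and more transcripts were detected before hCG. A transcript of low mean could therefore pass through the libraries before hCG alone, which favours lower over higher ones. The part of this in the overlap shares was not tested. Above that the balance turned: 15 of the 104 transcripts between 500 and 1000 CPM were higher (14.4%) and 9 were lower (8.65%), and 8 of the 82 transcripts at 1000 CPM and over were higher (9.76%) and 2 were lower (2.44%). On TMM-scaled CPM the class of 100 to 500 CPM had also turned, with 136 higher and 67 lower. Without both replicates 1 the balance in the 2 highest classes was closer, at 26 higher and 21 lower between 500 and 1000 CPM and 18 higher and 16 lower above.

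Median log2 fold changes from edgeR were also ordered by level. They were -4.17 in the lowest class, -1.43, 0.22, 0.81 and 1.18 in the classes that follow and 1.04 in the highest, against a median of -1.52 over all transcripts tested. That overall median depends on the scaling: it was -1.51 with RLE factors, -0.05 with upper quartile factors and -2.40 with total counts, so only the order of the classes, and not the sign of a class, is read here. The classes and the filter used the same libraries as the fold changes, so a transcript of low mean could pass through the libraries before hCG alone. In the lowest class 37.8% of the values of the cKO libraries before hCG were 0, and 74.2% after it. The part of the filter and of such zeros in the order of the classes was not tested. Absence from single libraries followed the same classes. The share of transcripts at 0 in at least 1 cKO library fell in steps from 99.0% in the lowest class to 92.5, 69.1, 33.0, 16.4 and 7.32% in the highest. Without both replicates 1 the median log2 fold changes were -4.45, -1.77, -0.04, 0.54, 0.59 and 0.73 from the lowest class to the highest.

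**Figure D3:**
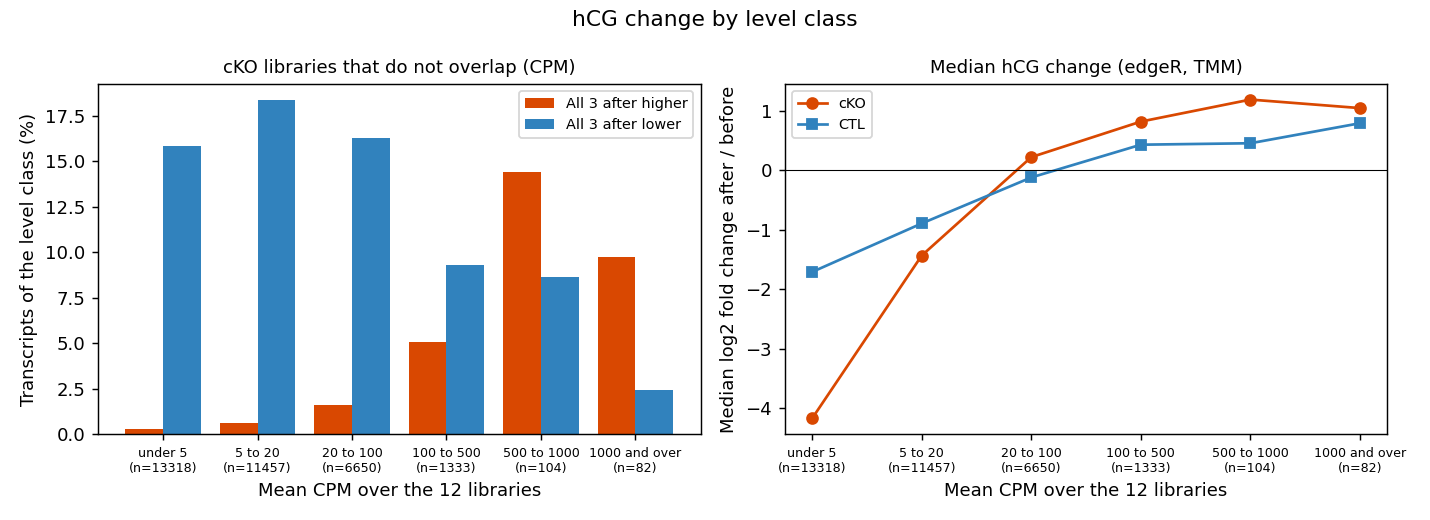
Left, percent of the transcripts of each level class whose 3 cKO libraries after hCG all lay above (orange) or below (blue) all 3 before it; right, median log2 fold change of each class in cKO and CTL (edgeR, TMM). Classes are by mean CPM over the 12 libraries, and lower transcripts outnumber higher ones below 500 CPM and not above.

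CTL cells had medians of -1.71, -0.90, -0.12, 0.43, 0.45 and 0.79 over the same classes, and 504 transcripts higher (1.53%) and 2666 lower (8.09%) in all 3 libraries. On TMM-scaled CPM these were 625 (1.9%) and 2456 (7.46%). The difference between genotypes was not tested per class. Over all transcripts tested, the cKO and CTL fold changes, which share no library, correlated with r = 0.151 and Spearman's rho = 0.156 across 32944 transcripts. By class r rose from 0.109 in the lowest to 0.434 in the 82 most abundant. These are descriptions across transcripts, and both contrasts contain the lower detection after hCG.

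Length was examined next. The mean transcript length weighted by counts was 4065, 3801 and 3880 bases before hCG and 2971, 3707 and 3618 after it. The times did not overlap, and the difference of -483 bases (exact permutation p = 0.1, two-sided, the smallest possible) was -252 without replicate 1 after hCG. Transcripts of 4000 bases and over took 33.7, 33.2 and 34.6% of the counts before hCG and 22.4, 33.0 and 31.5% after it, so that replicate 1 was far below the others. Those of 500 to 1000 bases took 14.1, 17.8 and 15.0% before hCG and 23.5, 19.2 and 18.9% after it, without overlap. The share of tested transcripts that were lower in all 3 libraries after hCG rose with length, in every step, from 9.54% under 500 bases to 22.7% at 4000 bases and over. Median levels rose with length too, from 3.96 to 13.3 CPM. The median log2 fold change over all tested transcripts showed no such order, at -1.18, -1.50, -1.55, -1.65 and -1.38 from the shortest class to the longest. Within level classes it differed by length, and not in the same order in each. Between 5 and 20 CPM it was -0.27, -0.44, -1.41, -1.60 and -2.19 from the shortest to the longest. Within the class of 20 to 100 CPM the median log2 fold change was 0.76 under 500 bases, 0.97 at 500 to 1000, 0.53 at 1000 to 2000, 0.18 at 2000 to 4000 and -0.25 at 4000 bases and over. Between 100 and 500 CPM it was 0.20 in the 42 transcripts under 500 bases, then 1.34, 1.11, 0.84 and 0.60. The part of RNA quality in these values was not tested. In CTL the length difference was -367 bases, and the genotypes differed by 115 bases (exact permutation p = 0.7, two-sided, 400 arrangements, adjusted p = 0.7).

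The most abundant transcripts on the length-corrected TPM scale were shared by few libraries. The 20 highest of each of the 6 cKO libraries were 59 different transcripts. Of these, 3 were in the top 20 of all libraries before hCG, 6 in that of all libraries after it, 1 in all 6, and 30 in a single library. For the top 100 the numbers were 306 different transcripts, 25, 26, 11 and 180. The 10 highest took 18.3, 17.5 and 9.18% of TPM before hCG and 33.8, 12.5 and 15.6% after it. Replicate 1 after hCG was the most concentrated.

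For the hCG response of single transcripts in cKO cells, edgeR's quasi-likelihood F test made 0 calls among 32944 transcripts (0% higher and 0% lower) at a Benjamini-Hochberg adjusted p of 0.05, and the smallest adjusted p was 0.0791. At an unadjusted p under 0.05 it found 1026 higher (3.11%) and 5109 lower (15.5%), so lower ones made up 83.3%. Upper quartile scaling gave 1401 and 3487, or 71.3% lower. This share at small p was not kept when a library after hCG was left out. Without replicate 1, 2 or 3 after hCG, lower ones made up 47.5, 45.2 and 46.2%. Without replicate 1, 2 or 3 before hCG they made up 82.4, 84.6 and 80.7%, and without both replicates 1 they made up 57.4%. Among transcripts averaging 100 CPM or more the share was 57.3%. Fold changes of all transcripts tested, whatever their p, did not lose the lean. In the main fit 61.5% were negative. Without replicate 1, 2 or 3 after hCG, 66.7, 68.6 and 68.9% were, among 43008, 42806 and 42622 transcripts that then passed the filter. Why fewer of these had a small p was not tested. The spread was wide, with a common coefficient of variation of 2.43 between libraries of a group. At such a spread, a count of 0 does not show that no transcript changed. Leaving out replicate 1, 2 or 3 after hCG gave 1, 2 and 1 calls, all higher, and leaving out any library before hCG gave 0. limma on log2(TPM + 1) also called 0, with 248 higher and 3018 lower at an unadjusted p under 0.05.

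DESeq2, a tool that the submitters' notes also name, gave another answer: 531 transcripts higher (2.19%) and 3586 lower (14.8%) of the 24233 to which it gave an adjusted p. Many of these were all or nothing. Among the 531 higher, 447 (84.2%) were at 0 in all 3 libraries before hCG, 286 (53.9%) had over 90% of the higher group's CPM in 1 library, and 87 (16.4%) had libraries that did not overlap between times. Among the 3586 lower, 3019 (84.2%) were at 0 in all 3 libraries after hCG, 1022 (28.5%) rested on 1 library in the same sense, and 1802 (50.3%) did not overlap. Over all 32944 transcripts tested by edgeR, 0.926% were higher and 16.5% lower without overlap. The shares of all transcripts at 0 in a whole group or resting on 1 library were not counted. Those 2 traits are therefore not shown to be particular to the DESeq2 calls. At an unadjusted p under 0.05, edgeR found 470 of the 531 and 2653 of the 3586.

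**Figure D4:**
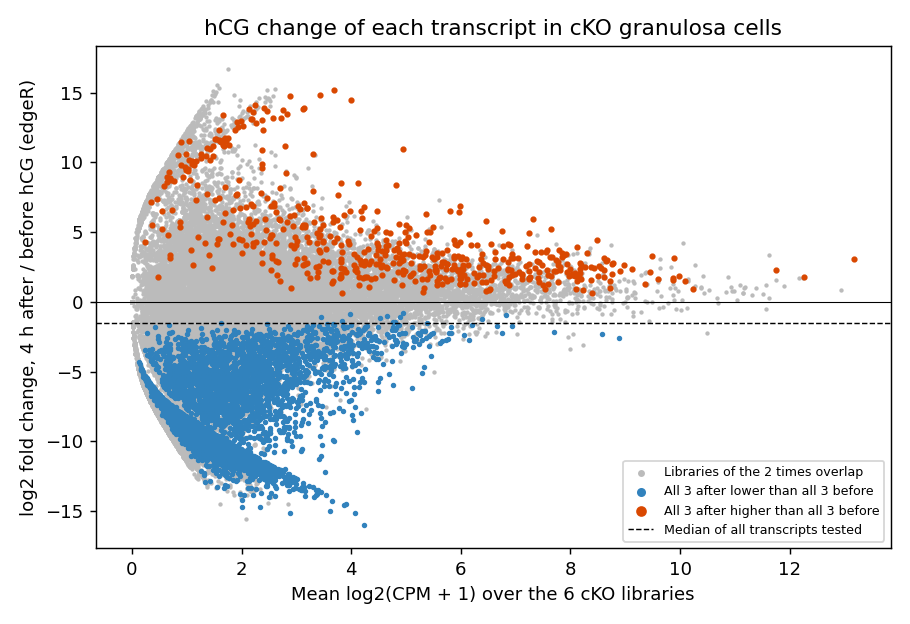
log2 fold change after over before hCG in cKO cells (edgeR) of each transcript tested, against its mean log2(CPM + 1) over the 6 cKO libraries; coloured points are the 548 transcripts higher and 4693 lower in every library after hCG on TMM-scaled CPM. Orange points extend to the most abundant transcripts, blue points crowd at low levels, and the dashed line is the median of -1.52.

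With none past the threshold in that fit, the transcripts named are those with the smallest p in each direction among those with no overlap between times and a mean of at least 5 CPM at the higher time. They are given as values. Highest in level was ENSMUST00000024739 (2520 bases), at 3264, 6576 and 4130 CPM before hCG and 36382, 15796 and 12731 CPM after it. Every library after hCG was above every library before it, and it received more counts than any other transcript in each of the 3 libraries after hCG. The means were 4657 ± 1718 and 21636 ± 12862 CPM (SD, n = 3), a 4.65-fold difference. On TMM-scaled counts the edgeR log2 fold change was 3.09 (SE 0.73, adjusted p = 0.0859). Its size depended on the scaling, at 2.20 with total counts (edgeR adjusted p = 0.222) and 5.08 with upper quartile factors (edgeR adjusted p = 0.389). With the replicate number as a block it was 3.02 (edgeR adjusted p = 0.00879). Without replicate 1 after hCG, the highest library, the log2 fold change was 2.20. On the TPM scale its rank among all transcripts went from 62, 31 and 35 before hCG to 9, 11 and 14 after it. In CTL it stood at 8487, 9256 and 4045 CPM before hCG and 17823, 21675 and 8873 CPM after it, where the times overlapped (edgeR log2 fold change 1.63, SE 0.69, adjusted p = 0.338). The difference of the responses was 1.47 (SE 0.95, edgeR adjusted p = 0.474).

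ENSMUST00000211290 (3035 bases) was the most abundant of the 48 transcripts that appeared after hCG. It had 0, 0 and 0.0584 CPM before hCG, a single count in all, and 571, 219 and 126 CPM after it. The times were far apart in every library. The ratio of the pooled levels was 13332 (95% interval 2393 to 526610, for counting error only), and edgeR's log2 fold change of 14.45 had an adjusted p of 0.14. CTL cells had the opposite order: 337, 328 and 134 CPM before hCG and 0, 1.18 and 55.3 CPM after it, again without overlap. At each time the cKO and CTL libraries did not overlap either, cKO being lower before hCG and higher after it.

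ENSMUST00000071248 (4831 bases) was the most abundant of the 2129 transcripts that dropped out. It had 81.8, 1109 and 486 CPM before hCG (559 ± 517, SD, n = 3) and 0 in all 3 libraries after it (edgeR adjusted p = 0.0859). With 3 counts over the group as the floor this was at least 11633-fold lower, a bound for counting error only and not for the spread between libraries. All 3 libraries after hCG were empty of it. In CTL it was present in 5 of 6 libraries, at 0, 81.6 and 267 CPM before hCG and 9.08, 27.0 and 98.7 CPM after it, with overlap between times. The difference of the responses had an edgeR adjusted p of 0.156.

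ENSMUST00000224702 (2150 bases) had 923, 1.39 and 0.993 CPM before hCG and 0 in all 3 libraries after it (edgeR adjusted p = 0.0833). By the same floor it was at least 6425-fold lower, again for counting error only. Nearly all of its counts came from replicate 1 before hCG. Without that library its log2 fold change was -7.10 in place of -14.73. In CTL it was high in the other 2 libraries that resemble this one, at 1835 CPM in replicate 1 before hCG and 905 CPM in replicate 1 after it, and at 0 to 5.51 CPM in the rest. Outside those 3 libraries it was above 0 only in libraries before hCG, 1 of CTL and 2 of cKO, at no more than 5.51 CPM. What the 3 libraries share was not tested.

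**Figure D5:**
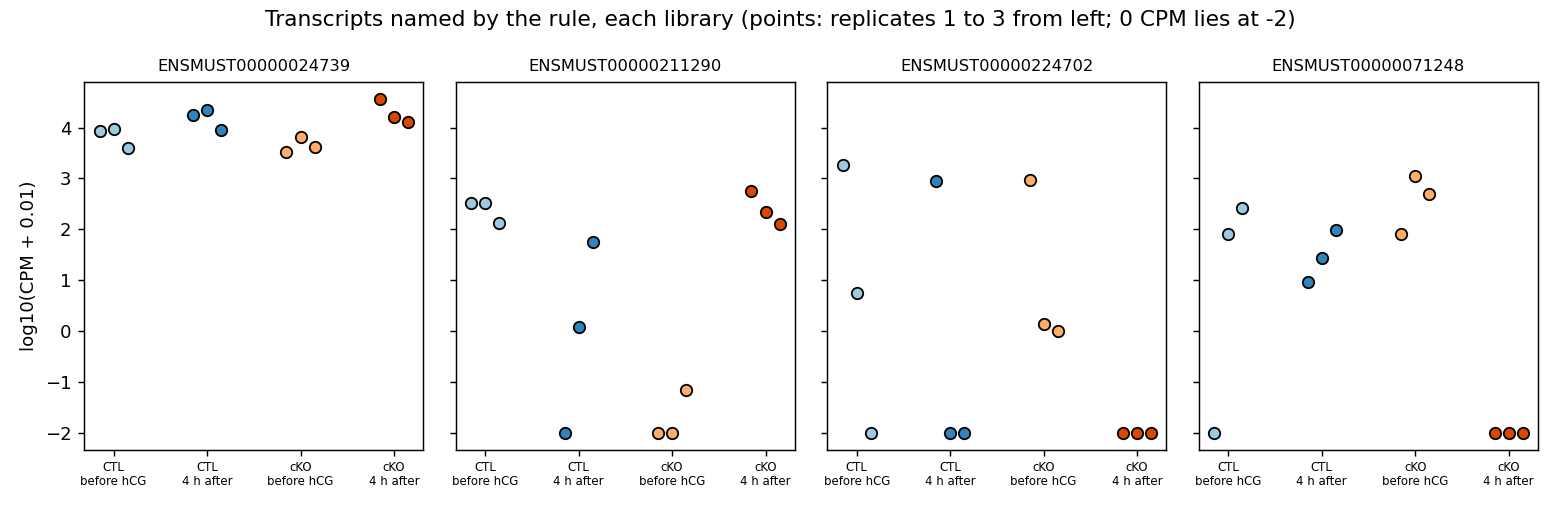
CPM of the 4 named transcripts in each RNA library, on a log10 axis with a small offset so that libraries at 0 lie at the bottom. The cKO libraries of the 2 times do not overlap in any panel, ENSMUST00000211290 runs in opposite directions in CTL and cKO, and ENSMUST00000224702 is high only in 3 libraries numbered 1.

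Whether the hCG response differed without LRH-1 was tested as an interaction. edgeR called 7 transcripts with a higher (0.0212%) and 4 with a lower response in cKO than in CTL (0.0121%) at an adjusted p under 0.05. At an unadjusted p under 0.05 it found 1789 (5.43%) and 2608 (7.92%). For the hCG response of CTL alone it called 1 transcript higher and 1 lower (0.00304% each), and 1315 (3.99%) and 3520 (10.7%) at an unadjusted p under 0.05. All 11 had fitted changes of opposite sign in the genotypes, 10 had at least 1 group with all libraries at 0, and in 8 a single cKO library held over 90% of the cKO CPM. The 1 whose cKO libraries did not overlap between times was ENSMUST00000211290, with a difference of 18.19 on the log2 scale (SE 4.18, edgeR adjusted p = 0.0413). The count of 11 was between 2 and 8 without any 1 of the cKO libraries: 5, 6 and 2 without replicates 1, 2 and 3 before hCG and 7, 8 and 6 without those after it. It was 8, 3 and 7 without CTL replicates 1, 2 and 3 before hCG, and 4, 14 and 11 without those after it. With upper quartile scaling it was 0.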

How the data were processed

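Total RNA of granulosa cells (libraries from 300 ng) was read in 4 groups of 3 libraries. Per the submitters' processing notes, Trimmomatic, TopHat2 2.0.12, kallisto, DESeq2 and build mm9 were used, with no role or order stated. As to the transcript annotation release: not given in the sources used here. Deposited tables hold, per the file headers, kallisto's estimated counts and TPM with the length of each transcript. The number of each library comes from its table's name only.

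Estimated counts were rounded. edgeR 4.0.16 in R 4.3.3 filtered transcripts with filterByExpr (32944 of 110473 kept, 95.9% of counts), scaled them by TMM and fitted 1 factor of 4 groups to the 12 libraries (quasi-likelihood test, Benjamini-Hochberg adjustment, threshold 0.05). TMM factors of the cKO libraries were 1.48, 0.931 and 1.50 before hCG and 0.544, 0.768 and 0.768 after it. Detection at equal depth is an expected number. Single values were tested by exact permutation of libraries. DESeq2 1.42.0 and limma 3.58.1 were alternatives. The peak lists were not used, and counting depth limits only counting error.

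Members, lists and tests were chosen with earlier results of these data known. The naming rule takes up to 2 transcripts a direction by smallest p. Where none passed, filling by smallest p kept the conditions of no overlap and 5 CPM, a reading settled after fits had been seen. Presence classes, overlap counts, level and length classes and their limits were also chosen after the data were seen, as were the filters at 100 and 1000 CPM, the robust fit and leaving out several libraries together.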

Additional observations from a re-analysis of the deposited data

Results flagged for a closer look

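In the main fit, edgeR's interaction test called the hCG response different between cKO and CTL for 11 transcripts (adjusted p under 0.05, 3 libraries in each of 4 groups). One of them, ENSMUST00000211290, had a cKO minus CTL difference of 18.19 on the log2 scale (edgeR adjusted p = 0.0413): it was higher after hCG in 3 of 3 cKO libraries and lower after hCG in 3 of 3 CTL libraries than in any library of the same genotype before hCG. Both results drew attention because the difference between the genotypes was itself tested. In the other 10 the cKO libraries of the times overlapped. Of the 11, 10 had at least 1 group with all libraries at 0, and in 8 a single cKO library held over 90% of the cKO CPM. The number of calls was 0 with upper quartile factors, with a mean of at least 5 CPM or with limma, and 2 with the robust fit.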

How the results depend on the processing

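The cKO response had 0 calls with RLE or upper quartile factors, a robust fit, limma at both pseudocounts, means of at least 5, 100 or 1000 CPM, and the 6 cKO libraries alone (0 of 18001). It had 4 calls with total counts, 1 with no filter, 4117 with DESeq2, 2 without the 3 libraries numbered 1 that resemble each other, and 1 without both cKO replicates 1. Leaving out 1 library gave 0 to 2: 1, 2 and 1 without replicates 1, 2 and 3 after hCG. The interaction had 0 calls with upper quartile factors, means of at least 5, 100 or 1000 CPM, or limma, 3493 with DESeq2, 7 without the 3 libraries, 4 without both cKO replicates 1, 2 with the robust fit, and 2 to 14 when 1 library was left out. The correlation of responses was 0.164 at 10 CPM and 0.109 to 0.146 without 1 library. Transcripts present only before hCG numbered 1109 at 5 CPM, 367 at 20 CPM, 5035 without both replicates 1 and 2767 to 5718 without 1 library; those present only after it numbered 409 and 106 to 234. Transcripts without overlap numbered 548 higher on TMM-scaled CPM, and 1555 higher and 9946 lower without both replicates 1. Fewer libraries loosen such conditions by construction; for the other changes the cause was not tested. No named transcript reversed; ENSMUST00000024739 ranged from 1.91 to 5.08 (log2; edgeR, DESeq2 or limma adjusted p 0.00879 to 0.784, 1 of 21 settings past the threshold, the replicate block). Of 20 settings, ENSMUST00000211290 passed with DESeq2, ENSMUST00000224702 with total counts and ENSMUST00000071248 with both.

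Same-numbered cKO libraries deviated together with r = 0.0249, 0.0377 and -0.0131, and only replicate 2 before hCG correlated best with its own number. With 3 libraries a group, such values cannot decide whether the numbers pair the libraries. Across genotypes, replicate 1 of cKO before hCG did resemble replicate 1 of CTL at both times, as given above. Within CTL, replicate 1 before hCG correlated with replicate 1 after it at r = 0.637 of log2(CPM + 1), among transcripts averaging 500 CPM or more. Replicates 2 and 3 of CTL had 0.0338 and 0.341 there. Among transcripts averaging 10 CPM or more, the CTL pairs numbered 1, 2 and 3 had 0.383, 0.171 and 0.424. With the replicate block there were 8 calls, all higher (smallest edgeR adjusted p 1.88e-06), ENSMUST00000024739 among them (edgeR adjusted p = 0.00879), and 11 in the interaction. Planned tests per gene were not run, since no table used here links the transcripts to genes.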
